A study of Mus musculus with 54 samples.

Results

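The genes examined encode the pore-forming and accessory subunits of voltage-gated and related cation channels. They were chosen by name and gene type alone, as every protein-coding gene whose symbol begins with Kcn, Cacn, Scn followed by a number, or Hcn followed by a number. The rule took 138 of the 21834 protein-coding genes, among 54356 genes in all, and no expression value entered the choice. By subfamily the 138 comprised 40 voltage-gated potassium channel subunits (Kv), 15 inward rectifiers (Kir), 14 two-pore-domain leak channels (K2P), 8 calcium- or sodium-activated potassium channels, 17 accessory subunits of potassium channels, 10 sodium channel pore subunits and 4 sodium channel beta subunits. The remaining members were 10 calcium channel pore subunits, 16 alpha2delta, beta or gamma subunits of calcium channels, and 4 hyperpolarization-activated channels.

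RNA was sequenced from whole hearts and whole livers of male C57BL/6 mice of 3 genotypes at 20 weeks of age. Mrps12+/+ mice were the wild-type littermates. Mrps12ep/ep mice were homozygous for a change in the mitochondrial ribosomal protein MRPS12 that makes mitochondrial translation error-prone, and Mrps12ha/ha mice were homozygous for a change that makes it hyper-accurate. All mice carried their allele in every tissue, and all were on a high-fat diet (HFD) that supplied 42% of energy through fat. This diet began at an age of 6 weeks and lasted 14 weeks, and no mouse on another diet enters the values below. Each genotype had 3 mice per tissue, and each mouse had 1 column of values that pooled 3 technical libraries.

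Cation channels set the membrane potential and its changes. In the cardiomyocyte, sodium channels carry the upstroke of the action potential, L-type calcium channels its plateau and the trigger for contraction, and potassium channels of the Kv, Kir and K2P families repolarize the cell and hold it at rest, while Hcn and T-type calcium channels serve pacemaking. Hepatocytes do not fire action potentials, and their potassium channels mainly support cell volume, bile formation and transport.

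A heart held 11202866 to 51480272 reads on genes and a liver 21238038 to 81518277. The shallowest heart was that of Mrps12ha/ha mouse 2, and limma's array weights gave it the lowest weight of the hearts, 0.167. The summed level of 8 atrial cardiomyocyte markers differed widely between hearts of the same genotype. It was 9446, 174148 and 127819 normalised counts in Mrps12+/+ mice 1, 2 and 3, 2993, 404706 and 99282 in Mrps12ep/ep mice, and 6857, 6173 and 12692 in Mrps12ha/ha mice. Thus 4 hearts, mice 2 and 3 of Mrps12+/+ and of Mrps12ep/ep, held much atrial RNA, and the other 5, among them all Mrps12ha/ha hearts, held little. The sum of 9 skeletal muscle markers was 19816 and 24011 in the livers of Mrps12+/+ mice 1 and 2 and 32.2 to 158 in the other 7 livers. The liver of Mrps12ha/ha mouse 3 held 6133 counts of 6 ventricular markers, against 26 to 456 in the others, and the liver of Mrps12+/+ mouse 3 held 12054 counts of 5 cholangiocyte markers, against 1334 to 2654, of which Spp1 alone, a gene that macrophages also express, gave 11817. In that liver Krt19 and Sox9, other markers of the list, were at 27.7 and 131 counts, the lowest of all 9 livers. Summed hepatocyte markers were at 4021013 to 6120247 counts in every liver and ventricular markers at 1432801 to 2902276 in every heart, the latter at 1877855 or more in Mrps12ha/ha and at most 1813941 in Mrps12+/+ hearts. Only 2 of the 6 ventricular markers, Myl2 and Tnni3, were apart between these genotypes, both higher in Mrps12ha/ha. Atrial cardiomyocytes of the mouse also express Myh6 and Tnni3, so these sums do not measure ventricular RNA alone. Myh6, the largest part of each sum, overlapped, at 2130354, 1185571 and 1846145 in Mrps12ha/ha and 1031675, 1248721 and 1083724 in Mrps12+/+ hearts. In such whole tissues fewer cells of a type and less RNA per cell cannot be told apart.

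Members were tested where their mean was at least 10 normalised counts over the 9 mice of a tissue. In the heart 87 of the 138 passed and 8 were listed at 0 in every mouse, whereas in the liver 45 passed and 17 were listed at 0. Of all members, 41 passed in both tissues, 46 in the heart alone, 4 in the liver alone and 47 in neither. The 4 of the liver alone were Kcnk10, Kcnj16, Kcnj9 and Scn8a, of which Kcnj9 was named after its values were seen, and Scn8a missed the limit in the heart narrowly, at a mean of 9.96. Heart and liver were normalised separately, so that a level in one was not tested against a level in the other.

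RefSeq promoters, 250 bases before to 50 bases after the start of transcription on GRCm38.p6, were found for 101 of the 138 genes, 137 promoters in all. Their median content of CG dinucleotides was 9 per promoter, with a ratio of observed to expected CG of 0.435, and it was 7 and 0.384 over all 32851 promoters. The first 3 sequences are shown because their genes were higher in each of the 4 hearts with much atrial RNA than in any of the other 5. For Cacna2d2 the margin was small, 236 in Mrps12ep/ep mouse 3 against 228 in Mrps12+/+ mouse 1. The last 3 are shown because their genes were highest in the livers with skeletal muscle RNA. Each reads 5′ to 3′ on the strand of its gene, and capitals mark every CG dinucleotide.
Kcnj3, chr2:55435720-55436019, plus strand: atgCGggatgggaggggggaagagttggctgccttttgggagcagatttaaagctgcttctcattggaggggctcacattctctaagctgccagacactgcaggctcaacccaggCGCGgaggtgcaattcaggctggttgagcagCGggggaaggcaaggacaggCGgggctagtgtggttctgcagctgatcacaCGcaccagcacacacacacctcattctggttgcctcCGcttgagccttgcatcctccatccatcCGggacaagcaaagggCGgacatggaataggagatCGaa
Kcnj5, chr9:32344295-32344594, minus strand: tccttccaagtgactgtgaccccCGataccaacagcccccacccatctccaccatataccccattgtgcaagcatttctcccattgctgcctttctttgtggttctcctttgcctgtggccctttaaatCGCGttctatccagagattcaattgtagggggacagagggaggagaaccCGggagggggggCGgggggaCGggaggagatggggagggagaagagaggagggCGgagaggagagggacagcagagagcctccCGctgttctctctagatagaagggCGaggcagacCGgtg
Cacna2d2, chr9:107399630-107399929, plus strand: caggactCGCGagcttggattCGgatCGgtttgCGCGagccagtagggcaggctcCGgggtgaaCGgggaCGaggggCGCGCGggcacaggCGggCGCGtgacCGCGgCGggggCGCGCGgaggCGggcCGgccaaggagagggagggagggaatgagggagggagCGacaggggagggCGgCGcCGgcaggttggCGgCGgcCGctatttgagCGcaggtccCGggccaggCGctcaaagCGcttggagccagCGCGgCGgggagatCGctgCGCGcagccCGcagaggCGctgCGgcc
Scn4b, chr9:45138374-45138673, plus strand: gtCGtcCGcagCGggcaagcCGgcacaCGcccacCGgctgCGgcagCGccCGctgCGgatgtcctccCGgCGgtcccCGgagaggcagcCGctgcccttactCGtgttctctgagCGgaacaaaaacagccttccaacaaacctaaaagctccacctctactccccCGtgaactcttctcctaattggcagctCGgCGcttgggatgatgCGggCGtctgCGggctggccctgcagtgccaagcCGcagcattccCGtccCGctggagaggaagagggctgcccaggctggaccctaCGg
Scn4a, chr11:106349341-106349640, minus strand: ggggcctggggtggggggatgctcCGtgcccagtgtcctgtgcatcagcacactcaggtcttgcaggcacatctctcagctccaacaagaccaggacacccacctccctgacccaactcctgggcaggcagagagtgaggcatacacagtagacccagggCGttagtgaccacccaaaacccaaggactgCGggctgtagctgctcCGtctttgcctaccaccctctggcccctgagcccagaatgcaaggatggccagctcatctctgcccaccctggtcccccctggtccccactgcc
Cacna1s, chr1:136052561-136052860, plus strand: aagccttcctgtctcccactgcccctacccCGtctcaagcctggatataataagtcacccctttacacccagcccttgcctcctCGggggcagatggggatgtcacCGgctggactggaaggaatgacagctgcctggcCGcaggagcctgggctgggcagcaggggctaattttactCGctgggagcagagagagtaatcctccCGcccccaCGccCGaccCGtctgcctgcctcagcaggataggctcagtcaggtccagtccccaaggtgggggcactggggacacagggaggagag
The 3 genes that shared this order of hearts did not share a CG content. The promoter of Cacna2d2 held 43 CG dinucleotides, at a ratio of 1.1 to the number expected, whereas those of Kcnj3 and Kcnj5 held 10 each. Among the other 3, Scn4b held 26, Cacna1s 9 and Scn4a 4. The E-box CANNTG, which reads the same on both strands, occurred 2 times in the promoters of Kcnj5 and Cacna1s and once in that of Kcnj3, was not found in the other 3 windows, and is held by 72.3% of all promoters.

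The channel genes that dominated the heart were those of the resting and repolarizing potassium currents, with calcium channel genes at lower levels. Per kb of exon, the scale used for all comparisons between genes, the leak channel Kcnk3 (TASK-1) had the highest level, 2599 ± 489 normalised counts per kb (mean ± SD over 9 hearts). Kcnj11, the Kir6.2 pore of the ATP-sensitive potassium channel, followed at 1600 ± 342. Kcnip2, the KChIP2 subunit of the transient outward current, stood at 1261 ± 294 per kb. Among the next were Kcnj3 at 999 ± 672, the silent Kv subunit Kcng2 at 895 ± 105, Kcnj5 at 755 ± 324, the rapid delayed rectifier Kcnh2 (ERG) at 697 ± 139 and Kcna5 at 670 ± 145, neighbours whose ranges all overlapped. The L-type pore Cacna1c was at 522 ± 75.8 per kb and its alpha2delta partner Cacna2d1 at 450 ± 95. The 5 highest members held 45.2% of the summed level per kb of all 138 and the 10 highest 66.2%. Potassium channel pores of the Kir, Kv and K2P subfamilies made up 26%, 20% and 16% of that sum, sodium channel pores 9.3% and calcium channel pores 5.95%.

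In the liver the leading channel genes were potassium channels of another set. The leak channel Kcnk5 (TASK-2), known from transporting epithelia, had 663 ± 296 normalised counts per kb over the 9 livers, and Kcnn2, the small-conductance calcium-activated channel SK2, 215 ± 45.9. Kcnj8, the Kir6.1 pore found in vessels, stood at 83.5 ± 19.6. Kcnk6, Kcnn1, Kcne3 and Cacng7 stood at 44.8 ± 17.8, 40.7 ± 8.79, 34.9 ± 11.3 and 31.1 ± 12.9 per kb. The K2P subfamily, which includes Kcnk5, held 47.4% of the summed level per kb, from 30.6% to 63.9% in single livers. The 5 highest members held 71% of it.

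**Figure D1:**
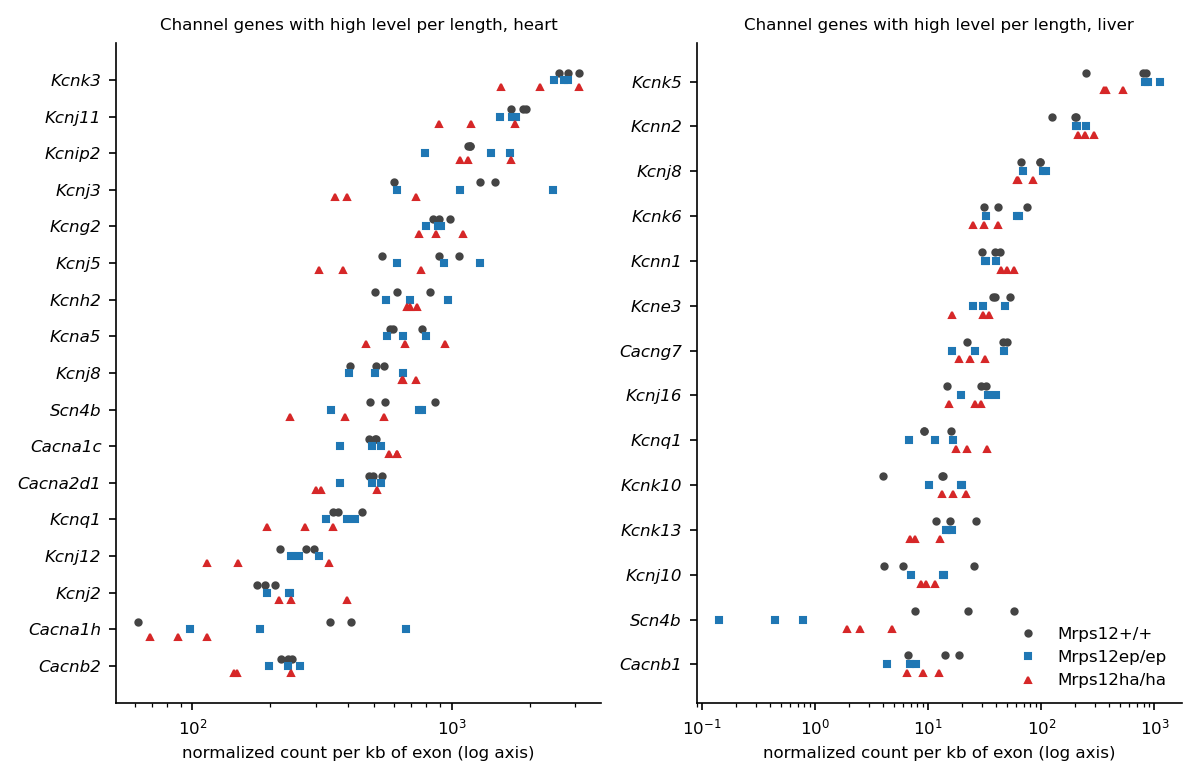
Normalised count per kb of exon (log axis) of channel genes named in the text that were among the 20 highest per length in the heart (left) and in the liver (right). Each point is 1 mouse, circles Mrps12+/+, squares Mrps12ep/ep and triangles Mrps12ha/ha. Kcnk3 led in the heart and Kcnk5 in the liver, and Scn4b in the liver ran from below 1 count per kb in the Mrps12ep/ep mice to over 10 in 2 Mrps12+/+ mice.

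Some cardiac members varied little between hearts and others widely. Over the 9 hearts the coefficient of variation was 14.5% for Cacna1c and 11.7% for Kcng2. It was 67.2% for Kcnj3, 91.8% for Cacna1h and 196% for Cacna2d2. Of the 87 members, 84 averaged 10 or more in the 5 hearts with little atrial RNA. In 13 of these, 15.5%, the 4 hearts with much atrial RNA all lay above the 5 others, and so did 4.65% of all 15814 genes that met the same minimum. Among them were Kcnj3, Kcnj5, Kcnj15, Cacna1d, Cacna1h, Cacna2d2, Cacna2d3, Kcnd2, Kcnd3, Kcnn3, Kcnq1 and Kcnt2, of which Cacna2d3 was named after its values were seen. Kcnj3 and Kcnj5 form the acetylcholine-gated channel of atrial and nodal cells, Cacna1d and Cacna1h are L-type and T-type pores of pacemaking and atrial cells, and Kcnn3 is the SK3 channel. Only Kcnj8 and Cacna1s lay below in those 4 hearts, 2.38% against 3.68% of all genes.

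Kcnj3 measured 3113, 7667 and 6736 normalised counts in the Mrps12+/+ mice, 3220, 12807 and 5607 in the Mrps12ep/ep mice and 1843, 3784 and 2054 in the Mrps12ha/ha mice. The highest heart, Mrps12ep/ep mouse 2, was also the heart with the most atrial RNA, Mrps12ha/ha mice 1 and 3 were the lowest, and Mrps12ha/ha mouse 2 lay between mouse 1 and mice 2 and 3 of the other genotypes. Its partner Kcnj5 ran in parallel, with 2520, 4991 and 4193 normalised counts in the Mrps12+/+ mice, 2894, 6032 and 4388 in the Mrps12ep/ep mice and 1440, 3558 and 1788 in the Mrps12ha/ha mice. The ratio of Kcnj3 to Kcnj5 per kb stayed between 0.955 and 1.91 over the 9 hearts. Cacna1h (Cav3.2) measured 602, 4008 and 3316 normalised counts in the Mrps12+/+ mice, 951, 6492 and 1775 in the Mrps12ep/ep mice and 670, 1111 and 855 in the Mrps12ha/ha mice, and Cacna2d2 228, 319 and 305 normalised counts in the Mrps12+/+ mice, 72.3, 3524 and 236 in the Mrps12ep/ep mice and 107, 193 and 130 in the Mrps12ha/ha mice. In Cacna2d2 a single heart, Mrps12ep/ep mouse 2, lay far above the others. Kcnh7 (ERG3) measured 0, 68.4 and 40.2 normalised counts in the Mrps12+/+ mice, 3, 105 and 36.3 in the Mrps12ep/ep mice and 1.8, 0 and 0 in the Mrps12ha/ha mice. It averaged 10 only through the 4 hearts with much atrial RNA, was low or at 0 in the 3 Mrps12ha/ha hearts, and within each other genotype it was lowest in mouse 1. The part of atrial RNA in the genotype differences of these genes was not tested.

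**Figure D2:**
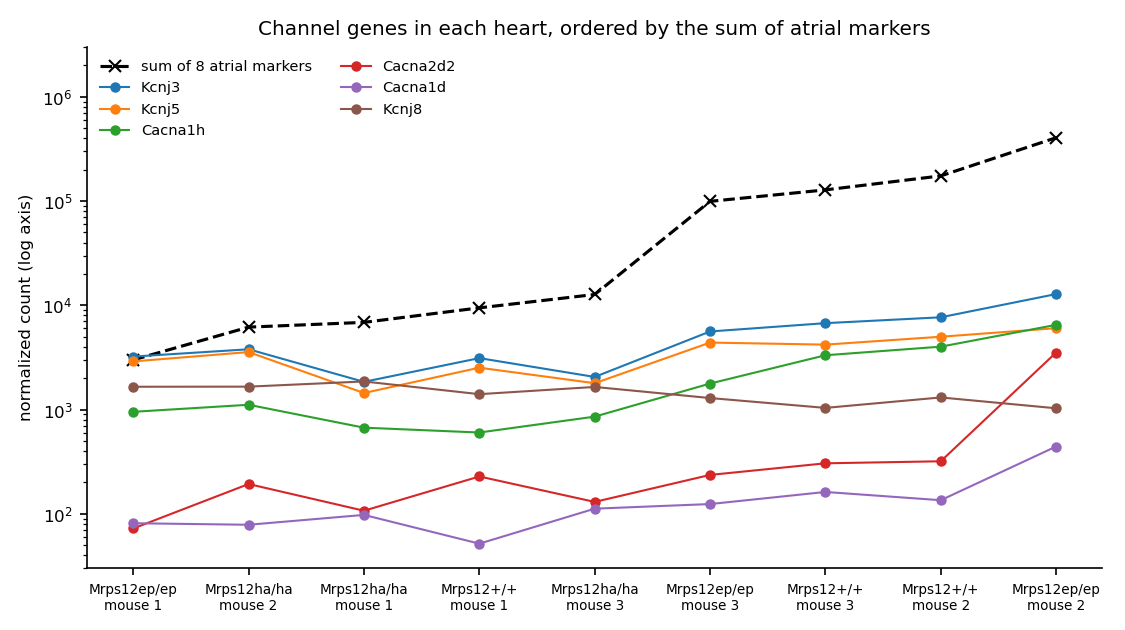
Normalised counts (log axis) of 6 channel genes and of the sum of 8 atrial markers in each of the 9 hearts, ordered from left to right by that sum. Kcnj3, Kcnj5, Cacna1h, Cacna2d2 and Cacna1d were higher in each of the 4 hearts on the right than in any of the 5 on the left, and Kcnj8 was lower.

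Between Mrps12ha/ha and Mrps12+/+ hearts no channel gene passed the test with limma (0 of 87 with an adjusted p under 0.05), where 0.0311% of all tested genes did. An unadjusted p under 0.05 was found in 12 members, 13.8%, below the 19.7% over all genes, and limma-voom on recovered reads also called 0. The groups did not overlap in 8 members that were higher in the mutants and 8 that were lower, 9.2% each, where the shares over all genes were 11.1% and 10%. The members as a whole lay at a median log2 fold change of -0.03, and all genes at -0.02. With 3 mice against 3 the exact permutation test cannot give a two-sided p below 0.1, which it gave for each member whose groups were apart.

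Among sodium channels, the beta subunit Scn4b measured 4295, 2768 and 2404 normalised counts in the Mrps12+/+ mice, 3829, 1710 and 3725 in the Mrps12ep/ep mice and 1185, 2730 and 1925 in the Mrps12ha/ha mice (log2 fold change -0.73 ± 0.38 (SE), adjusted p = 0.298), so that 2 of the 3 mutants lay below all Mrps12+/+ mice. Scn4a, the skeletal muscle sodium channel, measured 1611, 1284 and 1258 normalised counts in the Mrps12+/+ mice, 1158, 974 and 1528 in the Mrps12ep/ep mice and 490, 1238 and 884 in the Mrps12ha/ha mice (log2 fold change -0.76 ± 0.31 (SE), adjusted p = 0.229), with all Mrps12ha/ha hearts below all Mrps12+/+ hearts, mouse 2 by little. Scn10a (Nav1.8), a channel of sensory and cardiac neurons, went the other way, with 105, 158 and 113 normalised counts in the Mrps12+/+ mice, 42.6, 230 and 171 in the Mrps12ep/ep mice and 296, 417 and 234 in the Mrps12ha/ha mice (log2 fold change 1.31 ± 0.54 (SE), adjusted p = 0.233). All 3 Mrps12ha/ha hearts lay above the other 6, also above mouse 1 of the other genotypes, and the neuronal and glial marker list summed to 867 to 1196 counts in them and 642 to 793 in Mrps12+/+ hearts, with 770 to 1138 in Mrps12ep/ep hearts. Whether neuronal RNA bears on Scn10a was not tested.

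Among calcium channels, the fitted difference of the L-type pore Cacna1c lay above 0 and those of its partners Cacnb2 and Cacna2d1 below 0, and none passed the test. Of the 9 accessory calcium channel subunits tested, 4 had a fitted difference above 0 and 5 below. Cacna1c, the pore, measured 10695, 10202 and 10834 normalised counts in the Mrps12+/+ mice, 11302, 7864 and 10462 in the Mrps12ep/ep mice and 13071, 12141 and 13033 in the Mrps12ha/ha mice. The 3 mutants lay above all other hearts by a small margin (log2 fold change 0.27 ± 0.14 (SE), adjusted p = 0.305). Cacnb2 and Cacna2d1, which carry the pore to the membrane, measured 1970, 3177 and 1912 and 3899, 6390 and 3713 in Mrps12ha/ha hearts, against 3091, 3218 and 2916 and 6193, 5972 and 6716 in Mrps12+/+ hearts. Mutant mice 1 and 3 lay below every other heart in both genes, but mouse 2 lay among the controls, and the differences did not pass the test (log2 fold changes -0.43 ± 0.19 and -0.47 ± 0.21, adjusted p = 0.255 and 0.255). Cacna1s, the skeletal muscle L-type pore, measured 931, 1181 and 936 in the mutants and 905, 699 and 695 in Mrps12+/+ mice (log2 fold change 0.41 ± 0.29 (SE), adjusted p = 0.413), and Cacna1g, the other cardiac T-type pore, showed no separation, with 1104, 1039 and 1600 and 850, 1402 and 694. Cacnb4 stood at 101, 60.4 and 63.6 in the mutants, above 52.5, 47.6 and 49.7 in Mrps12+/+ and 42.6, 40 and 57.2 in Mrps12ep/ep hearts.

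Among voltage-gated potassium channels, Kcnq1, the pore of the slow delayed rectifier, was lower in the mutants. It measured 1429, 1838 and 1497 normalised counts in the Mrps12+/+ mice, 1335, 1730 and 1619 in the Mrps12ep/ep mice and 790, 1422 and 1111 in the Mrps12ha/ha mice (log2 fold change -0.55 ± 0.21 (SE), adjusted p = 0.221). The mutants lay below all Mrps12+/+ hearts, although mouse 2 missed the lowest of them by little. The transient outward pore Kcnd2 (Kv4.2) measured 492, 891 and 896 normalised counts in the Mrps12+/+ mice, 617, 672 and 751 in the Mrps12ep/ep mice and 331, 631 and 288 in the Mrps12ha/ha mice (log2 fold change -0.90 ± 0.31 (SE), adjusted p = 0.214), with mutants 1 and 3 below every other heart and mutant 2 within the others. Its relative Kcnd3 measured 694, 634 and 728 against 704, 938 and 900, and Kcnip2, the subunit shared by both, 4029, 5916 and 3750 against 4105, 4104 and 4039 (log2 fold change 0.13 ± 0.27 (SE), adjusted p = 0.791). Kcna5 and Kcnh2, which carry the ultrarapid and the rapid delayed currents, overlapped between genotypes, with log2 fold changes of 0.05 ± 0.24 and 0.14 ± 0.22. Kcnc4 was at 9.5, 11.2 and 20.1 in Mrps12+/+, 26.7, 26.7 and 25.4 in Mrps12ep/ep and 38.7, 15.1 and 42.9 in Mrps12ha/ha hearts, low values among which only Mrps12ha/ha mouse 2 fell within the Mrps12+/+ range (log2 fold change 1.13 ± 0.47 (SE), adjusted p = 0.236).

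Among the inward rectifiers, the fitted differences of the ATP-sensitive channel pores had opposite signs, and neither passed the test. Kcnj11, the Kir6.2 pore of the muscle ATP-sensitive channel, measured 6216, 7128 and 6953 normalised counts in the Mrps12+/+ mice, 6534, 5678 and 6305 in the Mrps12ep/ep mice and 3304, 6481 and 4385 in the Mrps12ha/ha mice (log2 fold change -0.57 ± 0.21 (SE), adjusted p = 0.22). Kcnj8, the Kir6.1 pore of the vascular form, measured 1404, 1306 and 1037 normalised counts in the Mrps12+/+ mice, 1654, 1028 and 1289 in the Mrps12ep/ep mice and 1859, 1658 and 1647 in the Mrps12ha/ha mice (log2 fold change 0.47 ± 0.18 (SE), adjusted p = 0.222), and each Mrps12ha/ha heart lay above each Mrps12+/+ heart. Kcnj8 was also lower in the 4 hearts with much atrial RNA, whose part in this difference was not tested. The ratio of Kcnj8 to Kcnj11 per kb was 0.269 ± 0.0555 (SD) in Mrps12+/+, 0.307 ± 0.0531 in Mrps12ep/ep and 0.574 ± 0.223 in Mrps12ha/ha hearts. It was 0.812, 0.369 and 0.542 in the mutants and at most 0.365 elsewhere, so that mutant mouse 2 lay barely above the others (exact permutation test, two-sided p = 0.1, the smallest it can give). This ratio was chosen after the values were seen. The pores of the classical inward rectifier current were Kcnj2 (Kir2.1) with 967, 1034 and 1130 normalised counts in the Mrps12+/+ mice, 1291, 1055 and 1287 in the Mrps12ep/ep mice and 1171, 2153 and 1304 in the Mrps12ha/ha mice (log2 fold change 0.51 ± 0.21 (SE), adjusted p = 0.233) and Kcnj12 (Kir2.2) with 600, 754 and 807, 662, 706 and 847 and 313, 927 and 414 in the same order (log2 fold change -0.53 ± 0.34 (SE), adjusted p = 0.368). In Kcnj2 the highest heart was mutant mouse 2, the shallowest heart, and in Kcnj12 the same heart was the highest while the other 2 mutants were the lowest. Kcnj3 and Kcnj5 had log2 fold changes of -1.16 ± 0.51 and -0.84 ± 0.39 (adjusted p = 0.252 and 0.261), beside the atrial values above.

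Among the leak and calcium-activated channels, Kcnk3 measured 10334, 12385 and 11214 in Mrps12+/+, 10796, 9873 and 11196 in Mrps12ep/ep and 6170, 12388 and 8723 in Mrps12ha/ha hearts (log2 fold change -0.37 ± 0.22 (SE), adjusted p = 0.345), again with mutants 1 and 3 lowest and mutant 2 level with the highest control. Kcnk5 was low in all hearts and lower in the mutants, at 12.9, 27.2 and 32.5 against 39.6, 67.5 and 35.2 in Mrps12+/+ and 39.6, 50.5 and 47.2 in Mrps12ep/ep hearts. Kcnn3 (SK3) had the smallest adjusted p of the members in this comparison. It measured 62.9, 76.1 and 79.9 normalised counts in the Mrps12+/+ mice, 65.4, 96.8 and 85.4 in the Mrps12ep/ep mice and 44.2, 36.2 and 42.9 in the Mrps12ha/ha mice (log2 fold change -0.81 ± 0.24 (SE), adjusted p = 0.207), and all 3 mutants lay below the other 6 hearts, including mouse 1 of each other genotype. Kcnn1 (SK1) measured 604, 597 and 628 normalised counts in the Mrps12+/+ mice, 841, 601 and 658 in the Mrps12ep/ep mice and 477, 520 and 521 in the Mrps12ha/ha mice (log2 fold change -0.27 ± 0.14 (SE), adjusted p = 0.292), also with the mutants below all others. Kcnn2 (SK2) overlapped, with 637, 725 and 528 in the mutants and 633, 704 and 674 in Mrps12+/+ hearts. Of the pacemaker channels Hcn2 and Hcn4 overlapped (0.29 ± 0.19 and -0.19 ± 0.26 on the log2 scale). Accessory potassium channel subunits had 0 of 11 members at an unadjusted p under 0.05, beside 19.7% of all genes, and among them Kcne1, a partner of Kcnq1, measured 176, 52.8 and 133 in Mrps12+/+ and 136, 226 and 249 in mutant hearts (log2 fold change 0.87 ± 0.53 (SE), adjusted p = 0.352).

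**Figure D3:**
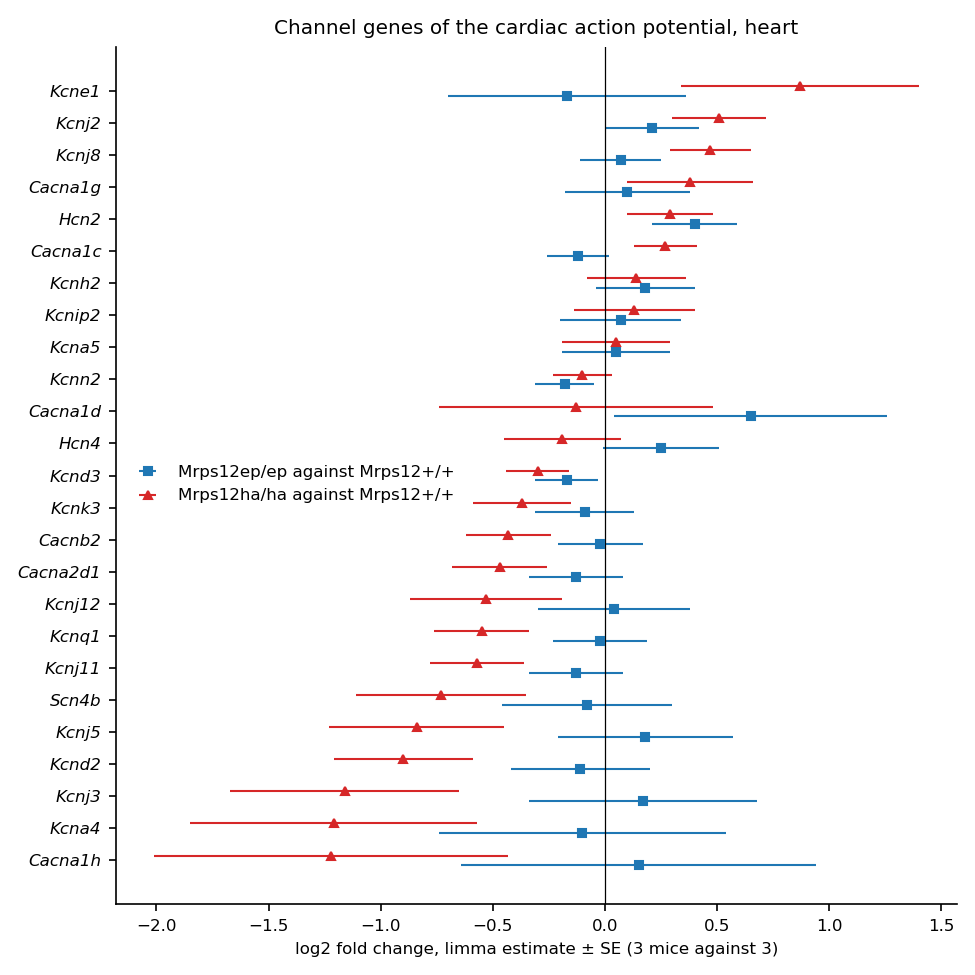
Log2 fold change (limma estimate with its standard error, 3 mice against 3) of channel genes of the cardiac action potential in Mrps12ha/ha (triangles) and Mrps12ep/ep (squares) hearts against the same Mrps12+/+ hearts. The Mrps12ha/ha values run from -1.22 for Cacna1h to 0.87 for Kcne1, and no value shown passed the adjusted threshold.

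Of the 12 members with an unadjusted p under 0.05, 8 had all 3 Mrps12ha/ha hearts on the same side also of Mrps12+/+ mouse 1, the control heart with little atrial RNA. These were Kcnc4, Kcnj2, Kcnj8, Kcnk5, Kcnn3, Kcnq1, Scn10a and Scn4a. Kcnd2, Kcnj3 and Kcnj11 had a mutant on the other side of it. The 12 were chosen by a fit that includes this heart, which favours the same side, and no share over all genes was taken. The count is therefore no test of atrial RNA. In Kcnq1 mutant mouse 2 was at 1422 and this heart at 1429, while Mrps12ep/ep mouse 1, also with little atrial RNA, was at 1335.

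The calls depended on mutant mouse 2. Without it, 16 members passed the limma test against Mrps12+/+ hearts, 18.4% of 87 where 27% of all genes did, 5 of them higher and 11 lower. Kcnj11 had the smallest adjusted p, 0.00537, with a log2 fold change of -0.83 ± 0.14 (SE), and Kcnd2, Kcnj12, Kcnk3, Cacnb2, Cacna2d1, Kcnq1, Kcnj5, Kcna4, Kcna7 and Scn4a were the others that were lower. Among the 5 that were higher were Kcnt1 (1.49 ± 0.26), Cacnb3, Kcnc4 and Kcnd1. Kcna7 and Kcnt1 lie outside the naming rule and were named after their values were seen. Kcnt1 measured 37.9, 34.6 and 50.3 in Mrps12+/+, 36.7, 38.3 and 44.5 in Mrps12ep/ep and 110, 30.2 and 120 in Mrps12ha/ha hearts, so that mutant mouse 2 lay below the controls. With array weights 24 members passed, 27.6% where 34.7% of all genes did. In both fits the share of members called lay below that of all genes.

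Against Mrps12ep/ep hearts, Mrps12ha/ha hearts likewise had 0 of 87 members past the limma test (0.0249% of all genes; limma-voom called 0), and 17 at an unadjusted p under 0.05, 19.5% beside 17.9%. The groups were apart in 8 members that were higher in Mrps12ha/ha and 7 that were lower, 9.2% and 8.05% where all genes gave 8.77% and 7.82%. Kcnn3 again had the smallest adjusted p (log2 fold change -0.98 ± 0.24, adjusted p = 0.227), and Kcnn1 was likewise lower in each Mrps12ha/ha heart (-0.45 ± 0.14). Scn3b, a sodium channel beta subunit, measured 40.5, 27.2 and 30.4 in Mrps12ha/ha and 41.6, 62.6 and 83.5 in Mrps12ep/ep hearts, while the neuronal pore Scn3a measured 103, 69.5 and 115 and 63.4, 55.1 and 47.2, higher in each mutant of the hyper-accurate genotype. Without Mrps12ha/ha mouse 2, 15 members passed (17.2%, all genes 23.2%), and with array weights 28 (32.2%, all genes 39.3%).

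Between Mrps12ep/ep and Mrps12+/+ hearts no difference in these genes was detected. None of the 87 members had an adjusted or an unadjusted p under 0.05 with limma or an adjusted p under 0.05 with limma-voom, where 0% and 1.69% of all genes did with limma. The groups were apart in 1 member that was higher and 2 that were lower, 1.15% and 2.3%, beside 4.4% and 3.64% of all genes. The 1 was Kcnc4, given above, and the 2 were Kcnn2, with 619, 589 and 570 against 633, 704 and 674, and the silent subunit Kcnv2, with 700, 442 and 686 against 710, 746 and 938. With limma-voom 1 member had an unadjusted p under 0.05. The median standard error of a member's log2 fold change was 0.35 in hearts and 0.47 in livers. The comparisons of the 2 mutants share their Mrps12+/+ controls and are not independent.

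In the liver, no channel gene passed the limma test between Mrps12ep/ep and Mrps12+/+ mice (0 of 45, 0.00653% of all genes; limma-voom called 0). At an unadjusted p under 0.05 there were 6, 13.3% beside 9.74% of all genes, all 6 lower in Mrps12ep/ep. The groups were apart in 0 members that were higher and 5 that were lower (11.1%), where all genes gave 6.49% and 6.28%. Between Mrps12ha/ha and Mrps12+/+ livers 0 of 45 passed (0.00653% of all genes; limma-voom called 0), 9 had an unadjusted p under 0.05 (20%, all genes 14.1%), and the groups were apart in 5 that were higher (11.1%, all genes 10%) and 6 that were lower (13.3%, all genes 9.81%). The median log2 fold change of the members was -0.14 in Mrps12ep/ep and -0.42 in Mrps12ha/ha livers, and of all genes -0.01 and -0.02. Of the 3 Mrps12+/+ livers behind both comparisons, 2 held the skeletal muscle RNA given above (19816 and 24011 marker counts, against 32.2 to 158). In 5 of the 42 members that averaged 10 or more in the other 7 livers, these 2 livers were the highest (11.9%, all genes 2.42%). Scn4a and Cacna1s had the same order but reached the minimum only through these 2 livers, so their order is given as values alone. With them 7 members had this order. The order itself places 2 of the 3 Mrps12+/+ livers highest, so p-values among the 7 are no test of genotype. Of the 42, 5 in Mrps12ep/ep and 9 in Mrps12ha/ha had an unadjusted p under 0.05. No share over all genes with that minimum was taken, so these 2 counts cannot be set against all genes. The part of muscle RNA in these differences was not tested. Between the mutants, 0 of 45 passed (0.00653% of all genes; limma-voom called 0), 7 had an unadjusted p under 0.05 (15.6%, all genes 8.62%), and 5 lay higher in Mrps12ha/ha without overlap (11.1%, all genes 8.82%) and 4 lower (8.89%, all genes 9.01%).

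Among the liver's leading potassium channels, Kcnk5 measured 2875, 2689 and 837 normalised counts in the Mrps12+/+ mice, 2982, 3800 and 2821 in the Mrps12ep/ep mice and 1797, 1214 and 1272 in the Mrps12ha/ha mice. The mutants were apart from each other (Mrps12ha/ha against Mrps12ep/ep, log2 fold change -1.17 ± 0.41 (SE), adjusted p = 0.509), whereas Mrps12+/+ mouse 3 lay below all other livers and the other 2 Mrps12+/+ mice lay close to those of Mrps12ep/ep. Kcnn2 measured 1494, 1526 and 932 normalised counts in the Mrps12+/+ mice, 1557, 1510 and 1842 in the Mrps12ep/ep mice and 1835, 2196 and 1587 in the Mrps12ha/ha mice, with each Mrps12ha/ha liver above each Mrps12+/+ liver and the lowest value again in Mrps12+/+ mouse 3 (log2 fold change 0.53 ± 0.20 (SE), adjusted p = 0.29). Kcnn1 measured 138, 178 and 198 normalised counts in the Mrps12+/+ mice, 146, 149 and 184 in the Mrps12ep/ep mice and 228, 261 and 200 in the Mrps12ha/ha mice, with the Mrps12ha/ha livers above the other 6 (log2 fold change 0.43 ± 0.20 (SE), adjusted p = 0.374). Kcnq1, which in epithelia pairs with Kcne3 to recycle potassium, measured 37.8, 65.5 and 37.5 normalised counts in the Mrps12+/+ mice, 27.4, 67.2 and 46.6 in the Mrps12ep/ep mice and 71.4, 134 and 90.5 in the Mrps12ha/ha mice (log2 fold change 1.06 ± 0.40 (SE), adjusted p = 0.293). All Mrps12ha/ha livers lay above the others, by the widest margin in mouse 2. Its partner Kcne3 measured 69.3, 66.3 and 94.6 in Mrps12+/+, 85.4, 54.2 and 44.4 in Mrps12ep/ep and 61.9, 28.7 and 54.1 in Mrps12ha/ha livers, with the last below the first (log2 fold change -0.71 ± 0.37 (SE), adjusted p = 0.418). Of the other genes known from liver or epithelia, Kcnj8 (-0.33 ± 0.25), Kcnj16 (-0.09 ± 0.40) and Kcnj10 (0.20 ± 0.60) overlapped between Mrps12ha/ha and Mrps12+/+ livers.

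Kcnt2, a sodium-activated potassium channel, was low in every mutant liver. It measured 41.3, 37.2 and 93.8 normalised counts in the Mrps12+/+ mice, 11.8, 8.7 and 17.8 in the Mrps12ep/ep mice and 11.9, 16.4 and 12.5 in the Mrps12ha/ha mice, and both mutant groups lay below the Mrps12+/+ livers (log2 fold changes -2.01 ± 0.46 in Mrps12ep/ep and -1.89 ± 0.46 in Mrps12ha/ha, adjusted p = 0.33 and 0.149). Its highest value was in Mrps12+/+ mouse 3, the liver with the most Spp1, and whether the 2 go together was not tested. Kcnj2 measured 108, 55.8 and 58.7 normalised counts in the Mrps12+/+ mice, 52.5, 20.2 and 44.4 in the Mrps12ep/ep mice and 28.6, 18.4 and 35.4 in the Mrps12ha/ha mice, with both mutants below all Mrps12+/+ livers (log2 fold changes -0.95 ± 0.45 and -1.38 ± 0.45, adjusted p = 0.531 and 0.238). Kcne4, an inhibitory accessory subunit, measured 24.5, 12.9 and 44.8 normalised counts in the Mrps12+/+ mice, 36.1, 13 and 22.2 in the Mrps12ep/ep mice and 11.9, 5.5 and 7.3 in the Mrps12ha/ha mice and was lowest in Mrps12ha/ha (log2 fold change -1.51 ± 0.57 (SE), adjusted p = 0.292). Kcnk1 (TWIK-1) measured 12.6, 21 and 12.2 normalised counts in the Mrps12+/+ mice, 1.6, 7.2 and 6.7 in the Mrps12ep/ep mice and 21.4, 13.7 and 13.5 in the Mrps12ha/ha mice, with the Mrps12ep/ep livers below the other 6 (log2 fold change -1.53 ± 0.57 (SE), adjusted p = 0.469 against Mrps12+/+). Kcnk13 measured 21.4, 23.9 and 39.5 in Mrps12ha/ha against 45.5, 50.6 and 44.4 in Mrps12ep/ep livers, and the Kv4.1 gene Kcnd1 7.1, 6.1 and 13.5 against 25.9, 21 and 20, both lower in each Mrps12ha/ha mouse.

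**Figure D4:**
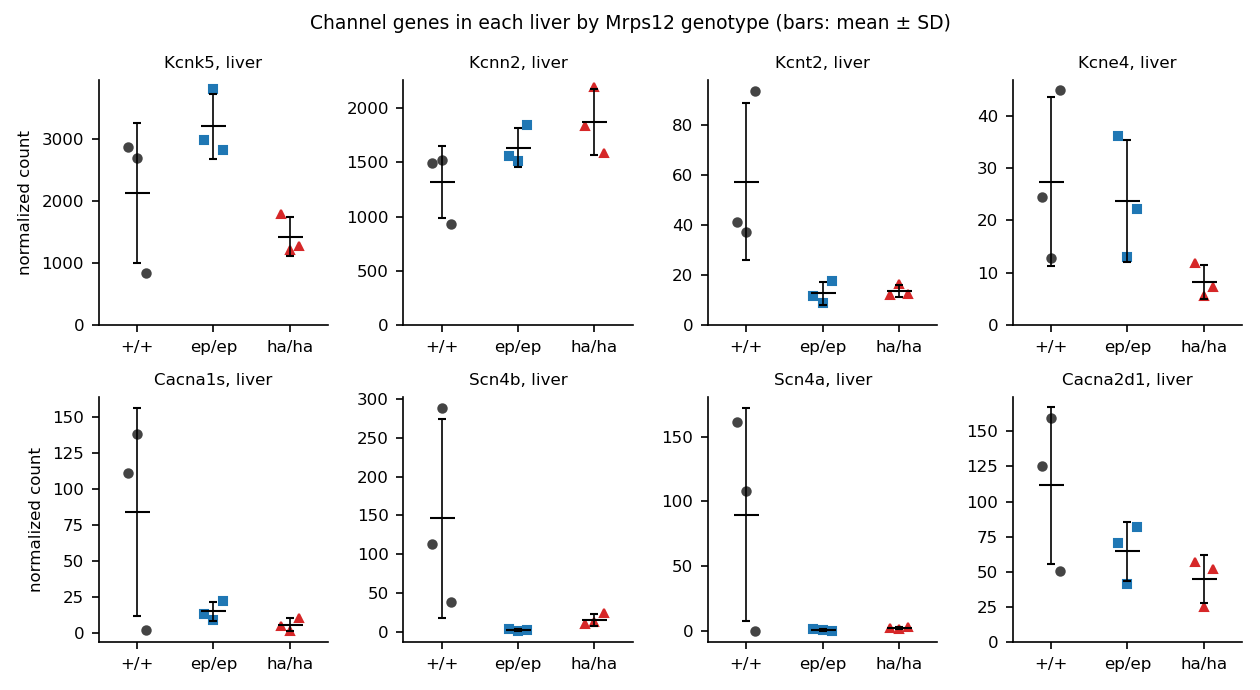
Normalised counts of 8 channel genes in each liver, by genotype, with the mean and SD of 3 mice. Kcnt2 and Kcne4 were low in Mrps12ha/ha livers, and Scn4a and Scn4b were highest in Mrps12+/+ mice 1 and 2, the first 2 circles of each panel.

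The channels of skeletal muscle stood out in the livers of Mrps12+/+ mice 1 and 2. Of the 45 members, 42 averaged 10 or more in the other 7 livers. In 5 of these 42, 11.9%, both livers lay above the other 7, as 2.42% of all 15090 genes with that minimum did, and in 0 members below, beside 1.54%. Among the 5 were Scn4b, Cacna2d1 and Cacnb1. Scn4a and Cacna1s, the sodium and calcium channel pores of skeletal muscle, had the same order but were tested only because of their values in these 2 livers, so their order is given as values alone. Scn4a measured 161, 108 and 0 normalised counts in the Mrps12+/+ mice, 1.6, 0.7 and 0 in the Mrps12ep/ep mice and 2.4, 1.4 and 3.1 in the Mrps12ha/ha mice. Cacna1s measured 111, 138 and 1.6 normalised counts in the Mrps12+/+ mice, 13.3, 8.7 and 22.2 in the Mrps12ep/ep mice and 4.8, 1.4 and 10.4 in the Mrps12ha/ha mice. Scn4b measured 113, 288 and 38.3 normalised counts in the Mrps12+/+ mice, 3.9, 0.7 and 2.2 in the Mrps12ep/ep mice and 9.5, 12.3 and 23.9 in the Mrps12ha/ha mice and had the smallest adjusted p of the members between Mrps12ep/ep and Mrps12+/+ (log2 fold change -5.19 ± 0.75 (SE), adjusted p = 0.11), a fold that was -5.79 with a pseudocount of 0.1 and -3.54 with 8 in place of 1. Scn4b was also above all mutants in Mrps12+/+ mouse 3, whose skeletal muscle markers summed to 55.4, within the range of the mutants. Without Mrps12+/+ mouse 3 the Mrps12+/+ group consists of these 2 livers alone. Scn4a and Scn4b then passed the test in Mrps12ep/ep and Scn4a and Cacna1s in Mrps12ha/ha livers, 2 of 45 each (4.44%), where 0.444% and 0.496% of all genes did. For Scn4a and Cacna1s these calls follow from which livers remained and from the minimum, and they are no test of genotype. In the Scn4b call genotype and muscle RNA cannot be told apart, since these 2 livers are its whole Mrps12+/+ group. Kcnj11, which was not tested in the liver, measured 26.6, 45.3 and 0 in Mrps12+/+, 0, 0 and 0 in Mrps12ep/ep and 0, 0 and 13.5 in Mrps12ha/ha mice, and so was highest in the 2 livers with skeletal muscle markers and next in the liver with ventricular ones.

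Of the 41 members tested in both tissues, 5 were apart between Mrps12ha/ha and Mrps12+/+ mice in opposite directions in heart and liver, and 0 in the same direction. Over the 14070 genes tested in both, 1.29% were apart in opposite and 3.26% in the same direction. The 5 were Kcnq1, Kcnn1 and Kcnj15, lower in the heart and higher in the liver, and Kcnj2 and Kcne3, higher in the heart and lower in the liver. Kcnq1 and Kcnj15 were also higher in each of the 4 hearts with much atrial RNA than in the other 5. The part of that RNA in their heart values was not tested. The nearest mutant heart and Mrps12+/+ mouse 1, the control with little atrial RNA, were at 1422 and 1429 for Kcnq1 and at 97.6 and 102 for Kcnj15. Kcnj15 (Kir4.2) measured 102, 151 and 176 normalised counts in the Mrps12+/+ mice, 107, 267 and 124 in the Mrps12ep/ep mice and 97.6, 81.5 and 80.9 in the Mrps12ha/ha mice in the heart, and 12.6, 21 and 11.4 normalised counts in the Mrps12+/+ mice, 7.8, 21.7 and 15.5 in the Mrps12ep/ep mice and 30.9, 21.8 and 22.9 in the Mrps12ha/ha mice in the liver. Kcne3 measured 16.4, 10.4 and 13.2 normalised counts in the Mrps12+/+ mice, 56.5, 11.6 and 20.9 in the Mrps12ep/ep mice and 22.1, 18.1 and 18.7 in the Mrps12ha/ha mice in the heart, few counts in which 1 Mrps12ep/ep mouse stood apart. The labels do not say whether a heart and a liver with the same number came from 1 mouse. Against Mrps12ep/ep mice, Kcnn1 and Kcnj15 were apart in opposite directions and Kcnk5 in the same direction, lower in both tissues, 2 and 1 of the 41 members, where 1.14% and 1.88% of all genes were. In Mrps12ep/ep against Mrps12+/+ no member was apart in both tissues, where 0.49% of all genes were in opposite and 0.455% in the same direction.

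**Figure D5:**
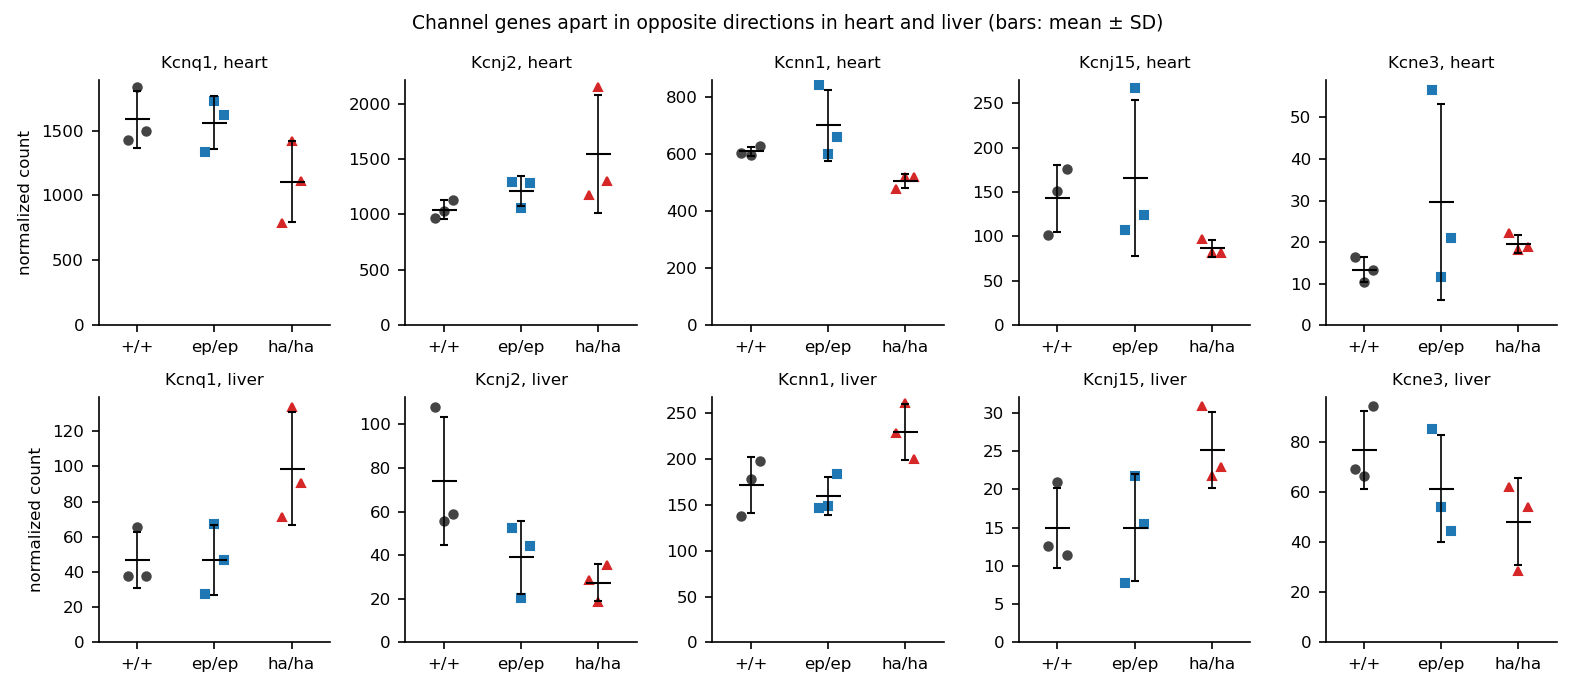
Normalised counts of 5 channel genes in each heart (top) and liver (bottom) by genotype, with the mean and SD of 3 mice, each panel on its own axis from 0. In Kcnq1, Kcnn1 and Kcnj15 the Mrps12ha/ha mice lay below the Mrps12+/+ mice in the heart and above them in the liver, and in Kcnj2 and Kcne3 the reverse.

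Channels act with partner proteins, pumps and calcium-handling proteins that carry other gene symbols. Of 31 such genes, 30 were tested in the heart, and limma called 0 in each heart comparison. Between Mrps12ha/ha and Mrps12+/+ hearts 9 had an unadjusted p under 0.05, 4 higher and 5 lower, 30% beside the 19.7% of all genes. Rrad, a small GTPase that restrains L-type calcium channels, measured 2057, 1960 and 1326 in Mrps12+/+, 2973, 2868 and 2418 in Mrps12ep/ep and 4201, 5327 and 4314 in Mrps12ha/ha hearts, with no overlap between any genotypes (log2 fold change 1.39 ± 0.18 (SE), adjusted p = 0.0558 for Mrps12ha/ha). Nedd4l, a ubiquitin ligase that removes sodium and potassium channels from the membrane, measured 1353, 1497 and 1793, 1574, 1910 and 1742 and 676, 1160 and 933 in the same order (log2 fold change -0.77 ± 0.19 (SE), adjusted p = 0.191). The calcium release channel Ryr2 measured 16285, 44622 and 19113 in the mutants and 47154, 51018 and 53594 in Mrps12+/+ hearts (log2 fold change -1.07 ± 0.33 (SE), adjusted p = 0.21), with mutants 1 and 3 far below mutant 2. The sulfonylurea receptors that complete the ATP-sensitive channels, Abcc8 and Abcc9, overlapped between genotypes, with 1681, 1752 and 1842 and 7952, 15406 and 8339 in the mutants and 1681, 3070 and 2234 and 13977, 8858 and 9756 in Mrps12+/+ hearts. In the liver 23 of the 31 were tested, limma called 0, and between Mrps12ha/ha and Mrps12+/+ mice 5 had an unadjusted p under 0.05, all 5 lower (21.7% beside 14.1% of all genes). Gja1, the gap junction protein connexin 43, measured 341, 415 and 326 in Mrps12+/+, 249, 267 and 240 in Mrps12ep/ep and 217, 182 and 230 in Mrps12ha/ha livers (log2 fold change -0.78 ± 0.16 (SE), adjusted p = 0.113 for Mrps12ha/ha), with both mutants below all Mrps12+/+ livers.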

How the data were processed

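RNA from 9 hearts and 9 livers of HFD-fed mice was deposited as 54 libraries, 3 technical libraries per mouse and tissue, and the authors' tables hold 1 pooled column per mouse. Per the labels and the study's methods, the authors trimmed reads (Trim Galore 0.4.1, cutadapt 1.18), quantified genes with Salmon 1.1.0 on GENCODE vM21 (GRCm38.p6), with strand taken into account, and normalised each tissue separately with DESeq2, without mitochondrial transcripts, which ties each level to the other genes of its tissue. The values used are these deposited normalised counts. The authors' tables of their own comparisons, with fold changes and p-values, were not used. Low values were whole multiples of 1 step (within 0.1 of a step) in each column, which gave the reads.

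The log2 of the normalised count plus 1 was fitted, for every gene that averaged 10 or more over a tissue's 9 mice, with limma 3.58.1 (lmFit, eBayes with trend) in R 4.3.3, the 3 genotypes of a tissue in 1 fit. This scale understates changes of low genes. p-values were adjusted by Benjamini-Hochberg over all tested genes at 0.05 in 6 comparisons, and single ratios were tested with the exact permutation test over 20 splits of 6 mice, two-sided. Levels per kb use the union of a gene's exons. Counts by the order of marker RNA took the minimum of 10 over the samples low in those markers, a choice made after seeing the data. The script was tested on simulated data. Python 3.11.15 with pandas 2.3.3 served for the rest. Named were members past the threshold, up to 5 per direction and comparison with the smallest p among groups apart, lists of cardiac and liver channels, the 3 highest of each subfamily and members apart in opposite directions in the tissues, 72 in all, with those singled out later marked as such. Some genes are not reported here. The members and lists were chosen with earlier results of these data known. Alternatives were pseudocounts of 0.1 and 8, no filter, a mean of at least 50, re-centring, only 2 genotypes in the fit, array weights, a replicate block, leaving out each mouse and, added after seeing the data, limma-voom on the recovered reads.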

Additional observations from a re-analysis of the deposited data

Results flagged for a closer look

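Several members had all mice of one genotype on one side in the heart and on the other side in the liver, and the difference between the tissues was not tested, because the tissues were normalised separately and fitted separately. Values are log2 fold changes with standard errors. Between Mrps12ha/ha and Mrps12+/+ mice they were -0.55 ± 0.21 in the heart and 1.06 ± 0.40 in the liver for Kcnq1, -0.27 ± 0.14 in the heart and 0.43 ± 0.20 in the liver for Kcnn1 and -0.68 ± 0.35 in the heart and 0.74 ± 0.47 in the liver for Kcnj15. In the reverse sense they were 0.51 ± 0.21 in the heart and -1.38 ± 0.45 in the liver for Kcnj2 and 0.54 ± 0.54 in the heart and -0.71 ± 0.37 in the liver for Kcne3. Between Mrps12ha/ha and Mrps12ep/ep mice they were -0.45 ± 0.14 in the heart and 0.52 ± 0.20 in the liver for Kcnn1 and -0.81 ± 0.35 in the heart and 0.80 ± 0.47 in the liver for Kcnj15. No single value passed the adjusted threshold, the adjusted p running from 0.221 to 0.691. Kcne3 and Kcnj15 rested on low counts in one of the tissues. Kcnq1 and Kcnj15 were also higher in the 4 hearts with much atrial RNA, whose part in their heart values was not tested. Groups of 3 mice were too small for a test of single outlying mice.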

How the results depend on the processing

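With an adjusted p under 0.05, limma called 0 channel genes in each of the 6 comparisons. Array weights moved this to 24 in Mrps12ha/ha against Mrps12+/+ hearts and 28 against Mrps12ep/ep hearts. Leaving out each mouse gave 0 to 16 and 0 to 15 in these comparisons, all calls arising without Mrps12ha/ha mouse 2, and 0 to 2 in Mrps12ep/ep and in Mrps12ha/ha against Mrps12+/+ livers, both without Mrps12+/+ mouse 3. Counts at an unadjusted p under 0.05 moved more often. The share of all genes under the same setting is given beside them, except for some ends of the ranges without single mice. In hearts of Mrps12ep/ep against Mrps12+/+ (0 members) they became 11 with array weights (12.6% of members, 14.2% of all genes), 2 without a filter (1.54% and 2.09%), 1 with only the 2 genotypes (1.15% and 3.26%), 1 with limma-voom (1.15% and 3.12%), 1 with the replicate block (1.15% and 1.96%) and 0 to 5 without single mice, 5 without Mrps12ep/ep mouse 2 (5.75% and 1.71%). In Mrps12ha/ha against Mrps12+/+ hearts (12) they became 36 with array weights (41.4% and 45.9%), 19 without a filter (14.6% and 13.7%) and 5 to 24 without single mice, 5 without Mrps12ha/ha mouse 1 (5.75% and 8.92%) or Mrps12+/+ mouse 2 (5.75% and 11.8%) and 24 without Mrps12ha/ha mouse 2 (27.6% and 40.4%). Against Mrps12ep/ep hearts (17) they became 34 with array weights (39.1% and 48.8%), 10 with only the 2 genotypes (11.5% and 11.6%) and 6 to 28 without single mice, 6 without Mrps12ha/ha mouse 1 (6.9% and 9.27%) and 28 without mouse 2 (32.2% and 37.1%). In the liver, a mean of at least 50 gave 2, 5 and 4 in Mrps12ep/ep against Mrps12+/+, Mrps12ha/ha against Mrps12+/+ and Mrps12ha/ha against Mrps12ep/ep (10.5%, 26.3% and 21.1% of 19 members, 10%, 14.9% and 9.17% of all genes). No filter gave 14, 18 and 13 (11.6%, 14.9% and 10.7% of 121 members, 7.84%, 10.3% and 6.73% of all genes). Leaving out single mice gave 3 to 10, 4 to 9 and 2 to 9, of which only the 10 is set beside all genes. The 10 arose without Mrps12+/+ mouse 3 (22.2% and 6.49%), which leaves the 2 livers with skeletal muscle RNA as the Mrps12+/+ group. The cause was not tested, though a filter changes how many members are tested.

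Of the log2 fold changes printed, small ones changed sign under some settings. Without single mice, in Mrps12ha/ha against Mrps12+/+ hearts, Hcn4 ran from -0.43 to 0.11, Kcna5 from -0.21 to 0.30, Kcnh2 from -0.02 to 0.33 and Kcnip2 from -0.07 to 0.26. In the liver Kcnj10 ran from -0.32 to 0.97 and Kcnj16 from -0.43 to 0.19. Array weights gave -0.05 for Kcnip2 and 0.26 for Kcnj16. Scn4b in Mrps12ep/ep against Mrps12+/+ livers kept its direction, with adjusted p from 0.0096, without Mrps12+/+ mouse 3, to 0.454.

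Mice share a replicate number only: deviations of same-numbered mice correlated from -0.231 to 0.578 in the heart and from -0.133 to 0.164 in the liver. The replicate block left the adjusted count at 0 in all 6 comparisons. DESeq2 and edgeR were not run, and limma-voom on the reads recovered from the normalised values was the only count-based fit. With 3 mice a group, depth from 11202866 reads and low counts in many members limit what these comparisons can show.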
